A study of Homo sapiens with 5 samples.

Results

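Most mitochondrial proteins are made on cytosolic ribosomes and must be carried into the organelle. The TOM complex of the outer membrane is the common entry gate, the SAM complex inserts β-barrel proteins, and the TIM23 and TIM22 complexes of the inner membrane pass on matrix proteins and carriers. Small cysteine-rich proteins of the intermembrane space are folded by a disulfide relay, and the MICOS complex shapes the cristae. The genes described here encode this machinery and the CHCHD family, most of which carry a coiled-coil-helix-coiled-coil-helix domain. They were chosen by symbol: TIMM, TOMM or CHCHD followed by a digit, or one of a list of named genes, with no measured value used. Of 10504 genes with abundance values, 42 matched. PAM16 and ROMO1 of the list were not analysed here.

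RNA-seq and Ribo-seq (sequencing of the mRNA fragments that ribosomes protect, called footprints) were done in HEK293A, an adherent line derived from human embryonic kidney cells. The siIRE1a group received an siRNA to IRE1α, a sensor of endoplasmic reticulum stress whose gene is ERN1, while the siCon group had a control siRNA. Starvation followed by FBS (fetal bovine serum) is listed for both, so no group without serum was compared. There were 2 siCon samples, 2 siIRE1a samples and 1 Ribo-seq sample in which both groups were multiplexed. The sample descriptions assign RNA-seq to siCon and Ribo-seq to siIRE1a, which conflicts with the tables, where both groups have both assays. The siRNA label defined the group, and the column name the assay.

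The tables give 1 value per gene, group and assay, and from these a translational efficiency (TE), the ratio of footprints to RNA. No replicate spread stands behind an RNA or footprint value, so these changes are descriptions without a test. The unit of the abundances is not stated, and the reads behind each value are unknown. The run summary lists 28769136 to 49112701 clusters for the 4 titled libraries. TE changes were tested by the authors, and a gene was called at an adjusted p under 0.05. Nothing states that the replicates were separate cultures, so these p-values may cover only technical spread. ERN1 RNA was 0.121 in siCon and 0.0736 in siIRE1a cells, and its footprints were 0.402 and 0.275. Of 6 markers of the HEK293 line, NEFL, VIM, KRT8 and KRT18 were measured, NEFM and PAX2 were not, and none of 8 blood and liver markers was. As these are bulk values, a change in which cells were present and a change per cell cannot be told apart.

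Nearly all import genes had slightly fewer footprints in siIRE1a cells, while their RNA went both ways. Footprints were lower for 40 of the 42 genes, against 67.9% of all genes, and higher for CHCHD1 and CHCHD7. The median log2 footprint change was −0.17, against −0.08 over all genes. The median RNA change was −0.03, against −0.01 over all genes, with 23 genes below 0 (51.2% of all genes). With every change set relative to the median of all genes, as many of all genes lie below 0 as above it by construction. In this setting 36 of the 42 footprint values stayed below 0. Footprints were lower by at least 0.32 on the log2 scale for 7 genes, where the background over all genes was 7.98%. The count was 2 with median centring and 2 with quantile normalization, settings for which the share over all genes is not given here. None was higher in footprints by that much (4.33% of all genes). In RNA, 6 genes were lower by at least that much (21.6% of all genes) and 5 higher (16% of all genes). Of the 41 genes with a mean footprint value of at least 1, 39 were below 0 (73.5% of all such genes), 6 were past the same limit downwards (7.22%) and 0 upwards (2.63%). Of the 14 with a mean RNA value of at least 1, 8 were below 0 (52.4%), 1 was past the limit downwards (22.7%) and 0 upwards (12.6%).

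**Figure D1:**
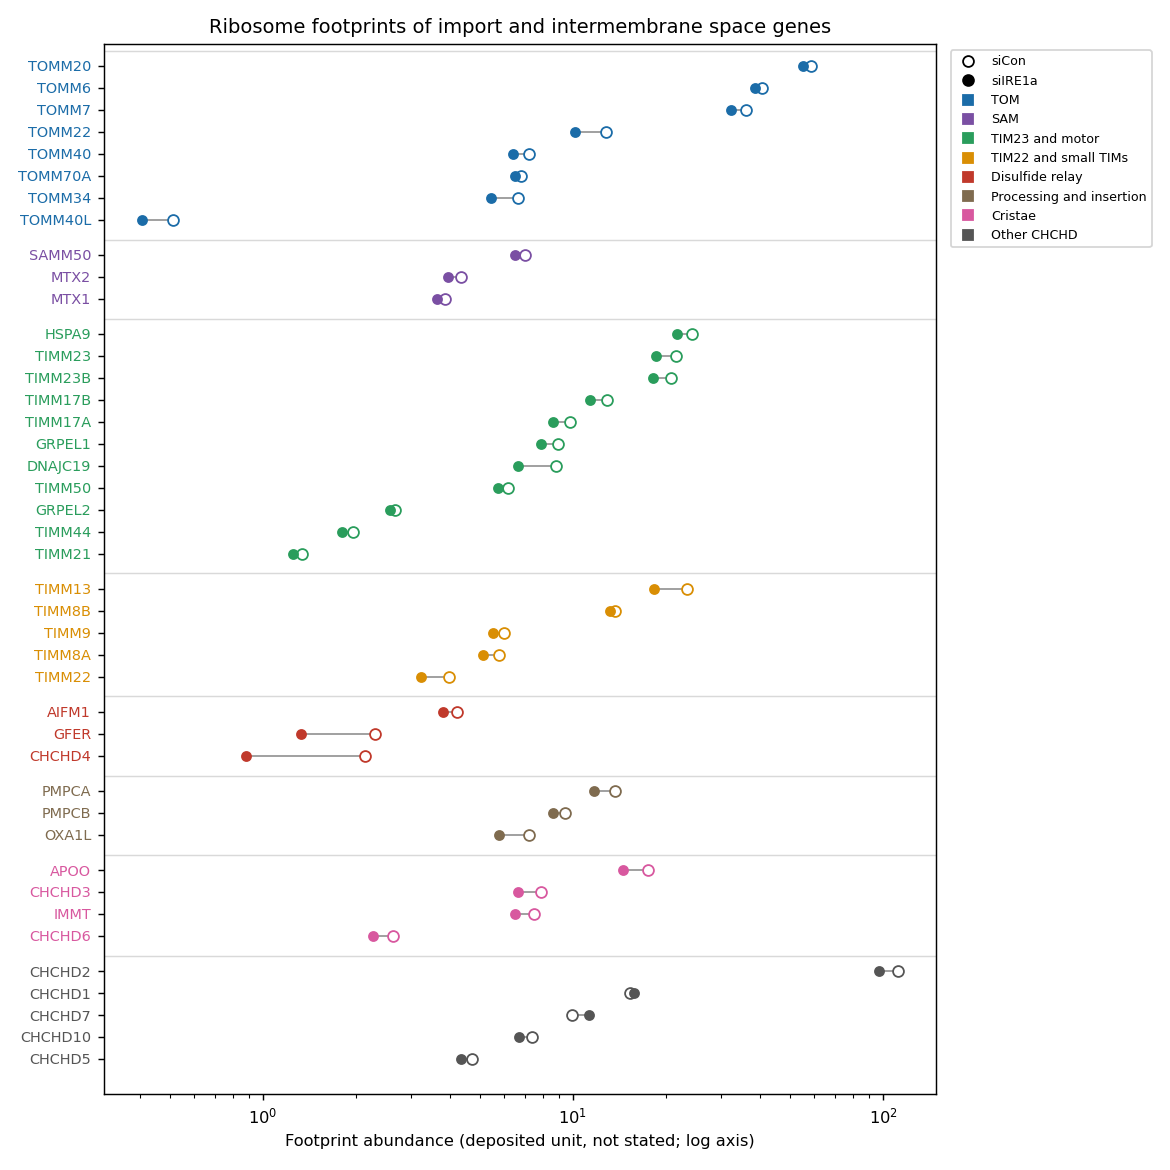
Footprint abundance of each gene in siCon (open circles) and siIRE1a cells (filled circles) on a log axis, grouped and coloured by role, with 1 value per group and no error bars because the tables hold no replicates. The filled circle lies left of the open one for 40 of 42 genes, with the widest gaps at CHCHD4 and GFER.

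Other sets of mitochondrial genes had similar medians. The 43 nuclear-encoded complex I genes had a median footprint change of −0.14, with 39 below 0. The 73 mitochondrial ribosomal protein genes had a median of −0.15, with 68 below 0. The median RNA changes of these sets were −0.001 and 0.01. Across all genes, Spearman's rho of the footprint change was −0.198 with mean footprint abundance and 0.132 with coding length. Across the 42 import genes the same values were 0.069 and −0.068. The import genes had a median siCon footprint value of 7.43 against 1.84 over all genes and a median coding length of 621 bases against 1461. The part of abundance and coding length in their footprint median was not tested.

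The disulfide relay held the 2 lowest footprint changes of the import genes. CHCHD4, known as MIA40 in yeast, is the oxidoreductase that binds incoming cysteine-rich proteins and passes a disulfide bond to them. Its footprints went from 2.14 in siCon to 0.880 in siIRE1a cells (2.43-fold lower, log2 −1.28), and its RNA went from 0.354 to 0.195 (log2 −0.86). Both assays were thus lower, footprints more than RNA. Both values are low, and with a pseudocount of 1 the log2 changes were −0.74 in footprints and −0.18 in RNA. GFER, the sulfhydryl oxidase that reoxidizes CHCHD4, had footprints of 2.29 and 1.33 (1.72-fold lower, log2 −0.79) and RNA of 0.318 and 0.268 (log2 −0.25). GFER footprints thus differed more than its RNA, although with the GC trend removed the changes were −0.71 and −0.49, and with a pseudocount of 1 the footprint change was −0.50. The authors' deposited table gives log2 TE changes of −0.38 for CHCHD4 and −0.48 for GFER, with no adjusted p for either. AIFM1, the flavoprotein that anchors CHCHD4 at the inner membrane, had footprints of 4.24 and 3.81 (log2 −0.16) and RNA of 0.691 and 0.667. AIFM1 lay close to the median of the import genes. Its TE did not pass the test in the authors' deposited table (log2 −0.08, adjusted p = 0.806).

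CHCHD4 also differed from most import genes in its 3′ UTR. Small RNAs pair with mRNAs largely through a short seed, and 3′ UTR matches to a seed can lower an mRNA and its translation. The 3′ UTRs of 10217 genes were searched on the mRNA strand for 16369 7-mers. These were ranked by the mean footprint change of genes that hold a 7-mer minus that of the other genes, divided by the standard error of this difference. GACCTAA ranked 1 from the lowest and GGACCTA ranked 2. The mean footprint change was −0.159 over the 644 genes with GACCTAA and −0.186 over the 473 genes with GGACCTA, against −0.059 over the genes without the 7-mer in each case. The pair overlaps in the 8-mer GGACCTAA. This ranking used the same footprint values, so lower footprints of genes that hold a match are no independent result, and the sequence of the siRNA was not used here. Either 7-mer was present in 926 of 10438 genes (8.87%) and in 4 of the 42 import genes (9.52%), namely CHCHD4, DNAJC19, GRPEL1 and TOMM7. The matches are shown because CHCHD4 and DNAJC19, which hold them, are among the 3 import genes with the lowest footprint changes. Sequences are from GENCODE transcripts (GRCh38, the minus strand in each case), 5′ to 3′, with the match in capitals.
CHCHD4, chr3:14112144-14112173: ttgagaggtggGGACCTAAttattaccaga
GRPEL1, chr4:7059053-7059082: tgtacctacatGGACCTAAaaaacaggtgg
DNAJC19 first match, chr3:180984363-180984392: cagataatttgGGACCTAtgtctacttttc
DNAJC19 second match, chr3:180984116-180984145: accacaactgaGACCTAAgaaattgaccta
TOMM7, chr7:22812761-22812790: tcctgcccattGACCTAAcatatggattac

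Import genes that hold a match ranged in footprint change from log2 −1.28 to −0.17. CHCHD4 and GRPEL1 carry the same 8-mer, at position 725 of an 810-base 3′ UTR and at position 1791 of a 1956-base 3′ UTR. GRPEL1 had footprints of 8.96 and 7.90 (log2 −0.18), close to the median of the import genes, against log2 −1.28 for CHCHD4. TOMM7, with 1 7-mer, was at log2 −0.17. GFER and 37 other import genes held neither 7-mer. Without the 4 genes that hold a match, the median footprint change of the other 38 remained −0.17, with 36 below 0. Over all genes the median was −0.14 with a match and −0.08 without, and footprints lower by at least 0.32 on the log2 scale were found in 19.8% and 6.79%. The 7-mers were picked by these same footprint values, so this difference was set by the choice and is no separate result. The part of a match in any footprint change was not tested.

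The promoter of CHCHD4 is shown because its RNA was lower as well. It comes from RefSeq (GRCh38.p14, chr3:14124871-14125120, minus strand) and covers the 250 bases before the annotated start. Capitals mark matches to a pattern for the element of nuclear respiratory factor 1 (NRF1), a regulator of many mitochondrial genes. The pattern leaves a base near its centre free, so a match need not be a palindrome. Of the matches shown, the first is a palindrome and the second is not.
CHCHD4 promoter: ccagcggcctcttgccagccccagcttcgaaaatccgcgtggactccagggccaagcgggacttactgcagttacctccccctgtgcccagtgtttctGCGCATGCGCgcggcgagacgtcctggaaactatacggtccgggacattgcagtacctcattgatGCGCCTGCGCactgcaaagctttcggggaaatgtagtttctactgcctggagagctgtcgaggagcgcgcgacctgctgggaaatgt
Both strands were searched, over the 39 import genes with a RefSeq promoter. A match to this NRF1 pattern was present in 7 of them (17.9%), against 12.6% of 8242 measured genes and 5.07% of all 35116 promoters. The genes were CHCHD4, IMMT, OXA1L, TOMM7, TOMM20, TOMM34 and TOMM40. CCGGAAG, a core of ETS family sites, was present in 12 (30.8%), against 19.9% of measured genes and 8.52% of all promoters. Genes with an NRF1 match lay on both sides of 0 in RNA change, from CHCHD4 at −0.86 to OXA1L at 0.29.

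**Figure D2:**
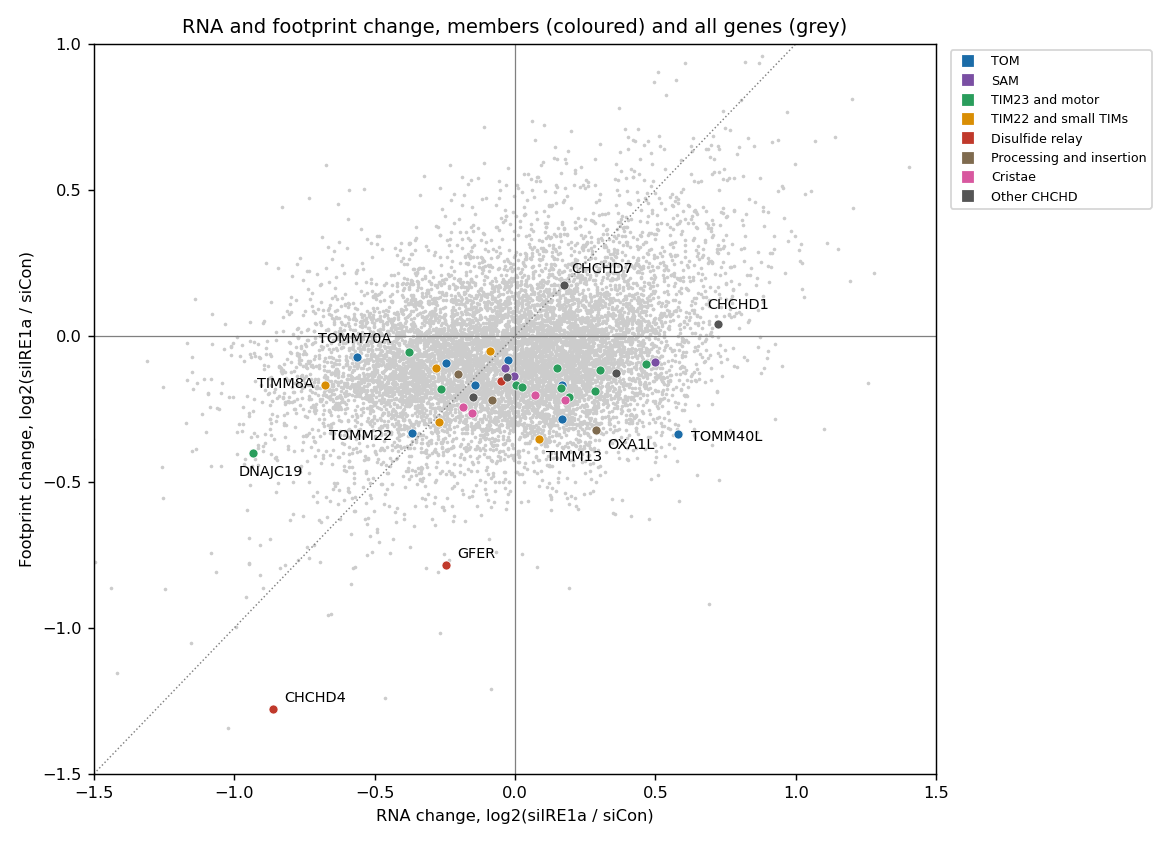
Log2 change in RNA (horizontal) against log2 change in footprints (vertical), siIRE1a over siCon, for import genes coloured by role and all genes in grey, with 25 genes outside the axes and a dotted line of equal change. Most coloured points lie just under the horizontal 0 line on both sides of 0 in RNA, and CHCHD4 and GFER stand well below.

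In the TOM complex and its receptors all 8 genes had lower footprints, between log2 −0.07 and −0.34, and 1 TE change passed the test. TOMM70A (now TOMM70), the receptor for carrier precursors and their chaperones, had RNA of 1.71 in siCon and 1.16 in siIRE1a cells (1.48-fold lower). Its footprints were nearly level, at 6.82 and 6.48 (log2 −0.07). TOMM70A TE rose in the authors' deposited table (log2 0.51, standard error 0.144, adjusted p = 0.00964), with RNA lower and footprints near their siCon value. TOMM22, the central receptor and docking point, had footprints of 12.8 and 10.2 (1.26-fold lower, log2 −0.33) and RNA of 1.06 and 0.826 (log2 −0.37). Both assays of TOMM22 thus differed by a like amount, and the authors' deposited table lists a log2 TE change of 0.03 (adjusted p = 0.942) for it. TOMM20, the receptor for N-terminal presequences, had RNA of 4.96 and 4.18 (log2 −0.25) and footprints of 58.7 and 55.0 (log2 −0.09). TOMM40, the channel itself, had RNA of 1.296 and 1.455 (log2 0.17) and footprints of 7.22 and 6.43 (log2 −0.17). These RNA differences have no test, and with the GC trend removed TOMM20 was at −0.0098 and TOMM40 turned to −0.06, while TOMM22 was at −0.33. With quantile normalization the footprint changes of TOMM20 and TOMM70A turned to 0.04 and 0.03, and with median centring that of TOMM70A to 0.009. The small subunit genes TOMM6 and TOMM7 had footprint changes of −0.08 and −0.17. TOMM34, a cytosolic cochaperone of import, had footprints of 6.64 and 5.45 (log2 −0.28). TOMM40L, a paralog of the channel, had the lowest footprint values of the group at 0.513 and 0.406, and has no adjusted p in the authors' deposited table.

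The SAM complex showed little difference. SAMM50, its β-barrel core, had footprints of 7.004 and 6.486 (log2 −0.11). Its partner genes MTX1 and MTX2 (metaxins) were at log2 −0.09 and −0.14 in footprints. MTX1 RNA was 0.252 and 0.356 (log2 0.50), and its TE change of −0.58 in the authors' deposited table did not pass the test (adjusted p = 0.452, standard error 0.485). None of the 3 TE changes passed.

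All 11 genes of TIM23 and its import motor had lower footprints, between log2 −0.05 and −0.40, while 8 had higher RNA. TIMM23, the channel subunit, had RNA of 3.01 and 3.44 (log2 0.19) and footprints of 21.5 and 18.6 (log2 −0.21). TIMM23B, a near-identical copy, had RNA of 6.81 and 8.29 (log2 0.28) and footprints of 20.7 and 18.2 (log2 −0.19). In TIMM23B, RNA was higher and footprints lower, and its TE fell in the authors' deposited table (log2 −0.46, standard error 0.153, adjusted p = 0.0326). TIMM23 TE did not pass (log2 −0.39, adjusted p = 0.0725 in the authors' deposited table). These genes are uncertain as separate observations, since 37.3% of the 28-base words in the TIMM23 coding sequence also occur in TIMM23B transcripts. The other channel genes TIMM17A and TIMM17B both had footprint changes of −0.18. TIMM50, the presequence receptor of TIM23, was at −0.11, TIMM21, which links TIM23 to TOM, at −0.10, and TIMM44, which tethers the motor, at −0.12.

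Within the motor, DNAJC19 stood apart from the rest. DNAJC19, a J-protein related to yeast Pam18, had RNA of 0.955 in siCon and 0.4996 in siIRE1a cells (1.91-fold lower, log2 −0.93) and footprints of 8.79 and 6.66 (1.32-fold lower, log2 −0.40). RNA differed more than footprints, also with a pseudocount of 1 (log2 −0.38 and −0.35). In the authors' deposited table DNAJC19 has a log2 TE change of 0.54 (standard error 0.211), which did not pass (adjusted p = 0.0763). HSPA9, the matrix Hsp70 that pulls precursors in, had RNA of 3.59 and 3.60 and footprints of 24.3 and 21.6 (log2 −0.17). Its nucleotide exchange factor genes GRPEL1 and GRPEL2 had RNA changes of −0.27 and −0.38, and footprint changes of −0.18 and −0.05. None of these passed in TE. Of the DNAJC19 coding 28-base words, 77.3% also occur in transcripts of the pseudogene DNAJC19P9, so reads from that copy cannot be told apart over much of the gene.

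In the TIM22 branch, TIMM13 had the largest footprint difference. TIMM22, the carrier translocase channel, had footprints of 3.97 and 3.23 (log2 −0.30). The small TIMs are chaperones that escort hydrophobic precursors across the intermembrane space, TIMM8A and TIMM8B being partners of TIMM13. TIMM13 footprints were 23.3 and 18.2 (1.28-fold lower, log2 −0.35) beside RNA of 0.627 and 0.666, whose log2 change turned from 0.09 to −0.15 with the GC trend removed. TIMM8A, in contrast, had RNA of 0.525 and 0.329 (log2 −0.68) and footprints of 5.77 and 5.14 (log2 −0.17). The TE changes in the authors' deposited table were −0.44 for TIMM13 (adjusted p = 0.140) and 0.52 for TIMM8A (adjusted p = 0.141), and neither passed. TIMM8B and TIMM9 were at −0.05 and −0.11 in footprints and did not pass in TE either.

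**Figure D3:**
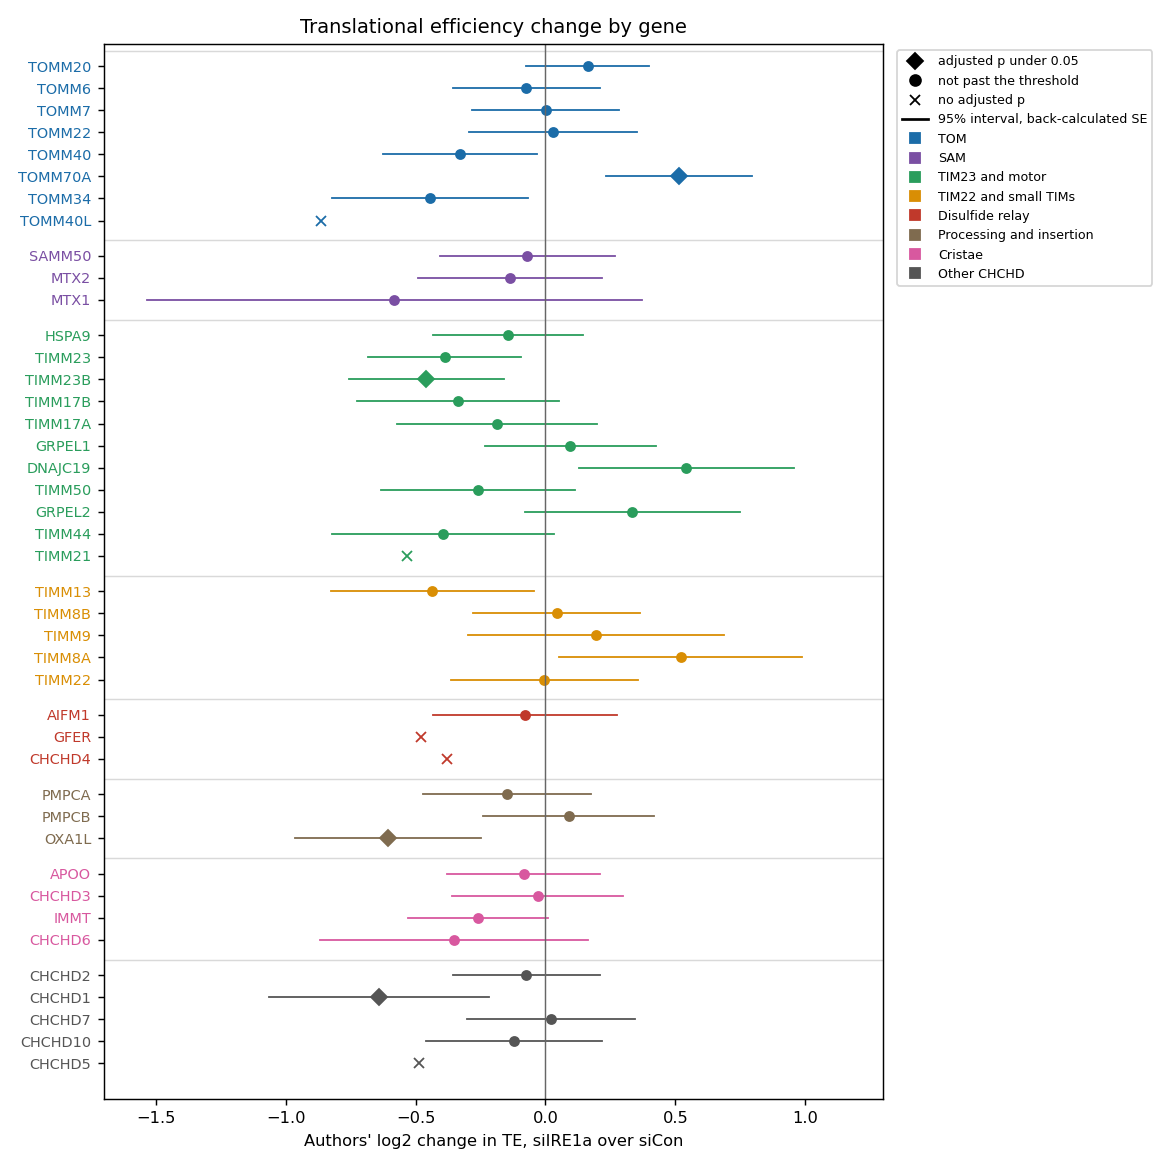
The authors' log2 TE change, siIRE1a over siCon, for each import gene in role groups, with lines for 95% intervals from back-calculated standard errors, diamonds for adjusted p under 0.05 and crosses for the 5 genes with no adjusted p. CHCHD1, OXA1L and TIMM23B lie left of 0 as diamonds and TOMM70A right of 0.

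Processing and membrane insertion held 1 called gene. OXA1L, the insertase that places proteins into the inner membrane from the matrix side, had footprints of 7.24 in siCon and 5.78 in siIRE1a cells (log2 −0.32). Its RNA went the other way, from 1.13 to 1.38 (log2 0.29). OXA1L TE fell in the authors' deposited table (log2 −0.61, standard error 0.182, adjusted p = 0.0169). PMPCA and PMPCB, the subunits of the peptidase that removes presequences, had footprint changes of −0.22 and −0.13 and did not pass in TE.

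The 4 cristae genes had footprint changes within a narrow range, between log2 −0.20 and −0.27, and none passed in TE. IMMT, the core MICOS subunit mitofilin, had RNA of 1.26 and 1.33 and footprints of 7.47 and 6.49. APOO, a MICOS subunit of the apolipoprotein O family, had RNA of 1.68 and 1.51 and footprints of 17.4 and 14.5. CHCHD3 (MIC19) had RNA of 1.53 and 1.34 and footprints of 7.91 and 6.67. CHCHD6 (MIC25) had RNA of 0.343 and 0.389 and footprints of 2.64 and 2.27. RNA was thus lower for APOO and CHCHD3 and higher for IMMT and CHCHD6, with footprints lower for all 4.

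The remaining CHCHD genes held both genes with more footprints. CHCHD1, a protein of the small mitochondrial ribosomal subunit, had RNA of 0.273 in siCon and 0.451 in siIRE1a cells (1.65-fold higher, log2 0.72). Its footprints hardly differed, at 15.3 and 15.7 (log2 0.04). Both RNA values are low, and the log2 RNA change was 0.56 with a pseudocount of 0.1 and 0.19 with a pseudocount of 1. CHCHD1 TE fell in the authors' deposited table (log2 −0.64, standard error 0.216, adjusted p = 0.0355). CHCHD7 had footprints of 9.96 and 11.2 (log2 0.17) and RNA of 0.258 and 0.291 (log2 0.17), and its TE did not pass. CHCHD2, which also acts in the nucleus on respiratory gene promoters, had RNA of 5.49 and 4.95 (log2 −0.15) and footprints of 112 and 96.8 (log2 −0.21, and 0.014 with quantile normalization). CHCHD10, its paralog, was at −0.14 and CHCHD5 at −0.13 in footprints.

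The share of called TE changes was near the background. The authors' deposited table called 4 of the 37 tested import genes (10.8%), against 10.5% of all 8878 tested genes. Lower TE was called for 3 of 37 (4.62% of all genes) and higher TE for 1 of 37 (5.9% of all genes). Taken from the authors' deposited table, the median log2 TE change was −0.14 for the 42 genes and −0.04 over all genes, and 30 of 42 were below 0 (54.2% of all genes). Across the import genes, TE change followed RNA change (Spearman's rho −0.815, n = 42) more than footprint change (rho 0.236). RNA enters the TE ratio, so the first relation is partly built in.

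RNA and TE changes also moved with base composition. Across all 10438 matched genes, Spearman's rho between transcript GC content and RNA change was 0.626, and across the 42 import genes it was 0.403. For the TE change it was −0.673 over all genes and −0.586 over the import genes. DNAJC19, with a GC content of 39.5%, had the lowest RNA change, while TIMM21 at 41.6% was at 0.47. With a GC trend removed from the TE changes, none of the 37 passed at an adjusted p under 0.05 by a normal test with Benjamini-Hochberg adjustment, and 1.3% of all genes did. The adjusted p was then 0.126 for CHCHD1, 0.190 for OXA1L, 0.191 for TIMM23B and 0.307 for TOMM70A. Before the trend was removed, 10 of the 37 had an unadjusted p under 0.05, back-calculated from the authors' adjusted p (25.9% of all genes). After removal 7 had an unadjusted p under 0.05, with no share over all genes given here. The log2 TE changes themselves were then −0.64 for CHCHD1, −0.50 for OXA1L, −0.42 for TIMM23B and 0.35 for TOMM70A, each in the direction of the authors' call. The part of GC content in these TE changes was not tested.

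**Figure D4:**
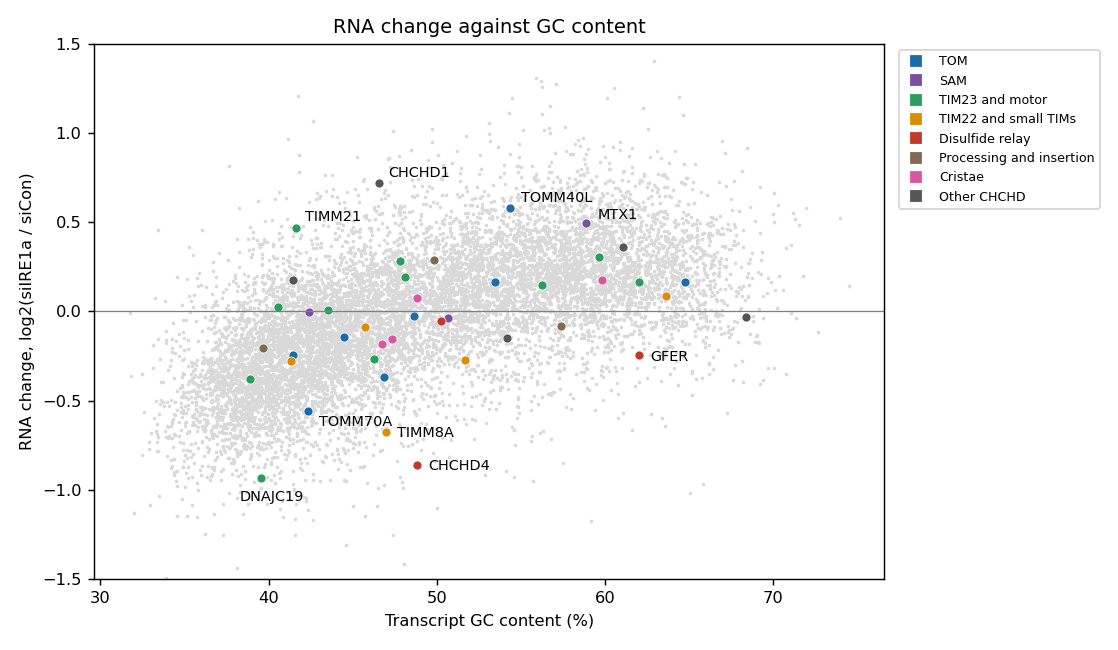
Log2 RNA change, siIRE1a over siCon, against transcript GC content in percent for import genes coloured by role and all genes in grey, with 16 genes outside the axes. The grey cloud rises from left to right (rho 0.626), and the coloured points follow it less closely (rho 0.403), with CHCHD1 above and CHCHD4 and GFER below.

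In control cells the TE level of the import genes spread over a wide range. The highest TE in siCon was that of CHCHD1 at 55.9, followed by TOMM7 at 52.1, CHCHD7 at 38.7 and TIMM13 at 37.2. The siCon RNA values in these ratios were 0.273 for CHCHD1, 0.696 for TOMM7, 0.258 for CHCHD7 and 0.627 for TIMM13. The median siCon RNA of the import genes was 0.640. The lowest TE values were those of TIMM23B at 3.04 and TOMM70A at 3.98, and the median TE was 9.55 against 4.70 over all genes. Of the TIMM23B coding 28-base words, 46.7% also occur in transcripts of other genes. TE was lower for longer coding sequences, with a Spearman's rho of −0.564 over the 42 genes and −0.539 over all genes. TOMM6 was an exception, with a coding length of 222 bases and a TE of 8.29. Whether both assays were scaled by the same length is not stated, and no replicate error can be set beside these levels.

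**Figure D5:**
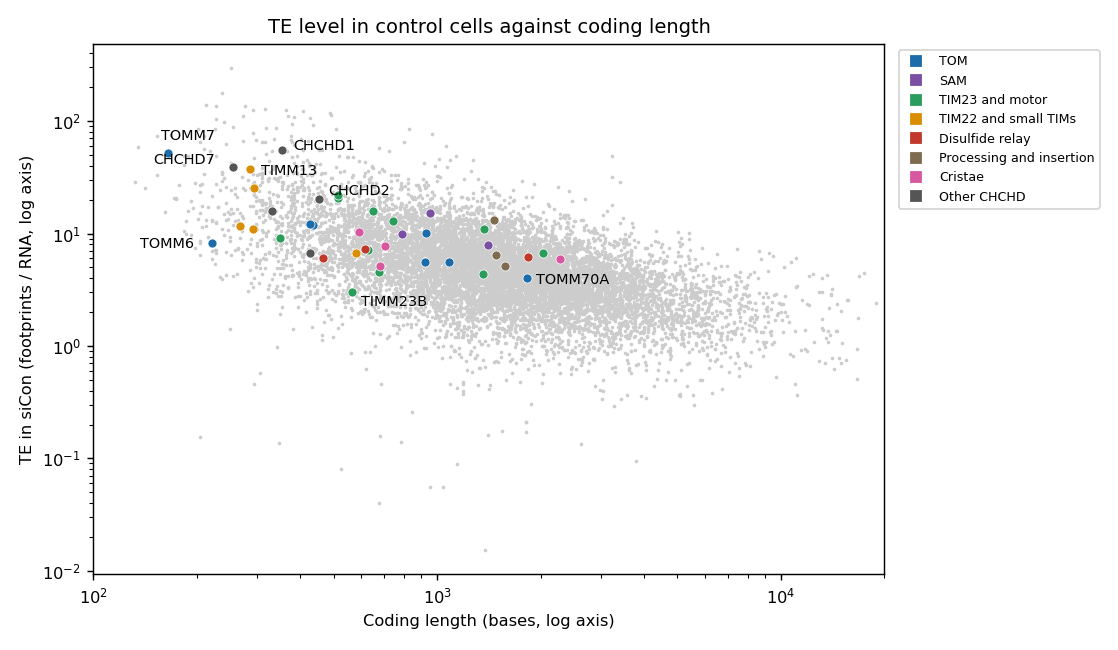
TE in siCon cells (footprints over RNA, log axis) against coding length in bases (log axis) for import genes coloured by role and all genes in grey. Short coding sequences lie higher, with CHCHD1 and TOMM7 at the top of the coloured points and TIMM23B lowest.

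Many import genes share coding sequence with other annotated genes. Of the 42 genes, 26 share at least one 28-base word of coding sequence, about the size of a footprint, with a transcript of another annotated gene, and 14 share at least 25% of them. The share was 100% for TOMM6, 77.3% for DNAJC19, 73.0% for CHCHD2, 67.9% for MTX1 and 64.2% for TOMM20. It was 63.0% for TOMM40 and 55.7% for TIMM8A. How the authors placed reads with several matches is not given in the sources used here. For CHCHD4 the share was 28.1%, and for GFER, OXA1L, CHCHD1 and TOMM70A no such word was found. Among the 28 genes that share under 25%, 26 had lower footprints (67.9% of all genes). Of the 24 of them tested in TE, 3 were called (10.5% of all genes).

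Of 33 measured genes of related function outside the group, 27 had lower footprints and the median change was −0.16. TE was called for 5 of the 29 tested in the authors' deposited table (17.2%, against 10.5% of all genes), which is a count on a small list and has no test. These calls stand without removal of the GC trend, with which 1.3% of all genes passed. Among the 5, the MICOS subunit genes MINOS1 (log2 0.76, adjusted p = 0.00277) and APOOL (log2 0.59, adjusted p = 0.0108) rose in the authors' deposited table. MINOS1 RNA was 0.462 in siCon and 0.238 in siIRE1a cells, with footprints of 11.2 and 9.75. APOOL RNA was 0.691 and 0.517, with footprints of 4.42 and 4.92. Both MINOS1 and APOOL thus had lower RNA. C19orf70 (MICOS13) went the other way, with RNA of 0.357 and 0.477. Its log2 TE change of −0.57 in the authors' deposited table did not pass (adjusted p = 0.175). None of the 4 cristae genes above passed in TE, with RNA lower for APOO and CHCHD3 and higher for IMMT and CHCHD6. The respiratory subunit genes NDUFB7 (log2 −0.83, adjusted p = 0.0311) and COX6B1 (log2 −0.48, adjusted p = 0.0136), both encoding twin cysteine-motif proteins of the intermembrane space, fell in the authors' deposited table. NDUFB7 RNA was 1.53 and 2.07 with footprints of 14.5 and 11.1, and COX6B1 RNA was 1.87 and 2.29 with footprints of 76.0 and 65.8. CLPB, a disaggregase of the intermembrane space, also fell in the authors' deposited table (log2 −0.55, adjusted p = 0.0154), with RNA of 0.738 and 0.935 and footprints of 4.89 and 4.22.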

How the data were processed

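The deposited abundance table holds 1 footprint and 1 RNA value per group and gene, in a unit that is not stated, and a TE ratio that equals footprints over RNA. A second table by the authors, named after DESeq2, gives each gene's log2 TE change with its adjusted p-value. Its model, the counting of reads and the pooling of replicates are not given in the sources used here. The submitters' processing notes name Bowtie 1.1.2 and the hg19 (GRCh37) genome. The run summary deposited by the authors gives cluster counts, yields and mean quality scores of the 4 titled libraries. Its sample names matched the titles.

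Of 10522 entries, 9 symbols with 2 entries each were left out, leaving 10504 genes, 8878 with an adjusted p. No value was 0. RNA and footprint changes are log2 of siIRE1a over siCon with no pseudocount and no filter. For all 934 called genes the authors' change had the sign of siIRE1a over siCon TE. Standard errors were back-calculated from the adjusted p, on the assumption that it came from Benjamini-Hochberg adjustment of two-sided normal p-values. For the 15 import genes whose back-calculated p reached 0.5, the standard error is a median over genes with similar footprint abundance. GENCODE release 29 transcripts (GRCh38) matched 99.4% of genes by symbol and gave GC content, coding length and 3′ UTRs. The GC trend was a polynomial of degree 3. 7-mers held by under 20 genes were not ranked. The back-calculated standard errors at p under 0.5, the GC trend removal and the 7-mer ranking were tested on simulated data. Python 3.11.15, numpy 2.4.6, pandas 2.3.3 and scipy 1.17.1 were used.

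The genes, lists and tests were chosen with earlier results of these data known. Full values are given for every called import gene and for up to 5 largest rises and falls in each assay among genes with a mean of at least 1. Protein sequences were not used here.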

Additional observations from a re-analysis of the deposited data

How the results depend on the processing

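Of the 4 TE calls, 1 was left at an adjusted p under 0.01 (TOMM70A, against 3.78% of all genes) and 0 with the GC trend removed (1.3% of all genes). The TE change of CHCHD1 moved from −0.640 to −0.643 with the GC trend removed and that of TIMM23B from −0.458 to −0.418. That of OXA1L moved from −0.607 to −0.501 and that of TOMM70A from 0.513 to 0.346. In the other settings the number of calls stayed within 1.5 times of 4. There were 6 of 37 at an adjusted p under 0.1 (16.5% of all genes) and 4 of 37 with median centring (10.5%). With a minimum footprint mean of 1 there were 4 of 37 (12.8% of all such genes). Without genes that have a near-identical copy, 3 of 31 were called (10.5% of all genes). The median footprint change stayed negative throughout: −0.15 with a pseudocount of 1, −0.086 with median centring, −0.063 with quantile normalization, −0.11 with the GC trend removed and −0.16 without the genes that share at least 25% of coding 28-base words. The last of these, chosen after seeing the data, left 26 genes with lower footprints of 28. Of 7 genes at least 0.32 lower on the log2 scale in footprints, 4 were counted with a pseudocount of 1, 2 with median centring, 2 with quantile normalization, 3 with the GC trend removed and 2 at 1.5-fold. The shares over all genes in these settings are not given here, so these counts cannot be set against a background.

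The median RNA change was −0.016 with a pseudocount of 1, −0.017 with median centring and −0.043 with the GC trend removed, and it turned to 0.022 with quantile normalization and 0.012 without the genes that share at least 25% of coding words. The cause was not tested. Of 6 genes at least 0.32 lower on the log2 scale in RNA, 2 were counted with a pseudocount of 1, 1 with a minimum mean of 1, 3 at 1.5-fold and 3 without the genes that share at least 25% of coding words. Of 5 higher by that much, 2 were counted with a pseudocount of 0.1, 0 with a pseudocount of 1, 0 with a minimum mean of 1, 8 with quantile normalization and 1 at 1.5-fold. With a minimum mean of 1 the shares over all such genes were 22.7% lower and 12.6% higher. For the other settings they are not given here. RNA values are mostly under 1, so pseudocounts shrink them most. No paired analysis was possible because the tables hold 1 value per group, and leaving out a replicate was not run for the same reason.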
